A study of Mus musculus with 12 samples.

Results

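The AP-1 and immediate early transcription factor genes were followed in mouse left ventricles taken 4 days after a sham operation or after the left anterior descending artery was tied off for good, which infarcts the heart (myocardial infarction, MI). They were found by their symbols in the library files, Fos, Fosb, Fosl1, Fosl2, Jun, Junb, Atf3, Egr1, Egr2 and Nr4a3, and they make up 10 of the 17471 genes listed. The 12 RNA sequencing libraries came from 4 groups of 3. Cre-positive MI and Cre-positive sham mice carried floxed Yap alleles and 1 copy of the inducible recombinase MerCreMer in the endogenous Postn (periostin) locus, which replaces that Postn allele and directs recombination to myofibroblasts. Cre-negative MI and Cre-negative sham mice were siblings with floxed Yap and a wildtype Postn locus. All animals were 6 to 10 weeks old and ate a tamoxifen citrate diet after surgery. No group had MerCreMer without floxed Yap, so loss of Yap, the recombinase and the replaced Postn allele cannot be told apart in these groups.

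AP-1 is a dimer of basic leucine zipper proteins. FOS family proteins (FOS, FOSB, FOSL1, FOSL2) need a JUN partner, whereas JUN proteins can also pair with each other, and ATF3 pairs with JUN proteins or with itself and often represses. EGR1 and EGR2 are zinc finger factors and NR4A3 is an orphan nuclear receptor. These genes are typically transcribed within minutes of a growth factor, stretch or stress signal through mitogen-activated protein kinases, serum response factor and CREB, and most of their transcripts are short-lived. In the heart they are known as rapid responders to load and injury in muscle, fibroblasts and immune cells.

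Expected counts, which are estimated reads per gene, summed to 10257675 to 15176286 per library. Levels of 1 gene across libraries are given as CPM (expected counts divided by library size, with sizes scaled by TMM), and levels of different genes as FPKM, which is per transcript length. The labels give replicates a number only, so p-values measure the spread between these samples, which may be technical. The RNA is from whole tissue, so fewer cells of a type and less RNA per cell cannot be told apart. Yap1 ranged over 91.1 to 93.9 CPM in Cre-positive MI and 84.6 to 96.4 CPM in Cre-negative MI, so the ranges overlapped, and Postn ranged over 603 to 674 CPM in Cre-positive MI and 1528 to 1729 CPM in Cre-negative MI. Cre-positive sham replicate 2 stood apart from the other 11 libraries, at 57.8 on the second principal component (7.6% of the variance) where the others lay between -21.4 and 14.7. It had 34060 CPM of the slow myosin gene Myh7 (377 to 2938 CPM in the 5 remaining sham libraries) and 14340 CPM of the cardiac myosin gene Myh6 (39840 to 53140 CPM), genes chosen after their values were seen. Results are therefore given with and without it. Y-linked reads were present in 1 of 3 Cre-positive MI, 3 of 3 Cre-negative MI, 0 of 3 Cre-positive sham and 2 of 3 Cre-negative sham libraries.

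Promoter windows, 250 bases before to 50 bases after the annotated start, were taken from RefSeq (GRCm38.p6) for 8 of the 10 genes, all but Fosl1 and Egr1. They were searched on both strands for the cyclic AMP response element core TGACGT, the AP-1 site TGACTCA, the TATA box TATAAA and the CArG box that serum response factor binds. The CRE core was in windows of Fos, Egr2, Atf3 and Nr4a3 and in 7.51% of 32851 windows of all genes. No window of these genes held TGACTCA, which was in 5.20% of all windows. A CArG box was in windows of Egr2 and in 1.63% of all windows, and TATAAA was in the windows of Fos and Junb and in 13.6% of all windows. Egr2 was the only gene with more than 1 window. Its window starting at base 67535249 held neither CRE core nor CArG box, and that starting at base 67537316 held a CArG box only. The Fos and Egr2 sequences are shown because the results turn on Fos, the most variable FOS gene, and Egr2, the gene with the largest change after MI, Junb because it rose in both genotypes, and Atf3 and Nr4a3 because they were high together in 1 library. Each is written 5′ to 3′ up to the base before the RefSeq start of its window, except Nr4a3, which is written up to the start of the counted transcript in GENCODE M21, 152 bases upstream of the RefSeq start. The GENCODE start is the same base as the RefSeq start for Fos and Egr2, 30 bases downstream of it for Junb and 7 bases upstream of it for Atf3. Capitals mark the CRE core on either strand, the CArG box and the TATA box.
Fos, chr12:85473640-85473889, plus strand: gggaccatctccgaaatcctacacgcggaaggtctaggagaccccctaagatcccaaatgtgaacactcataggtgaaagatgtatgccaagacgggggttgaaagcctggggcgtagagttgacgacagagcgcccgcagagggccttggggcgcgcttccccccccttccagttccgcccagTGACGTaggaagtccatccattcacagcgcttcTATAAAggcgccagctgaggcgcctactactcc
Junb, chr8:84978749-84978998, minus strand: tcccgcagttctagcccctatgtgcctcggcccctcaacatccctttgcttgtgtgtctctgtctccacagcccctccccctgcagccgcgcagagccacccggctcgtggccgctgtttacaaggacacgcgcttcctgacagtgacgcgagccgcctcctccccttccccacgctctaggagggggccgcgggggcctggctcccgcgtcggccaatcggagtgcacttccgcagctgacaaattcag
Egr2, chr10:67537619-67537868, plus strand: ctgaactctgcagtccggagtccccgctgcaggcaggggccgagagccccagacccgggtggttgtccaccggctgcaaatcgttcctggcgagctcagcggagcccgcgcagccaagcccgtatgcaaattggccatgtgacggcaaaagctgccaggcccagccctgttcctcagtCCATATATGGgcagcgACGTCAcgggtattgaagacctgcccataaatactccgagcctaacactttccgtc
Atf3, chr1:191183334-191183583, minus strand: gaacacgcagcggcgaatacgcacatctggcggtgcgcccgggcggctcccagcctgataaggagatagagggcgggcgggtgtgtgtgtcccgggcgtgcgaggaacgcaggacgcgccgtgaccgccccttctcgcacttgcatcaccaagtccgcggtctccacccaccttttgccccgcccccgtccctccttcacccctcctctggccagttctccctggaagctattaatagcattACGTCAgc
Nr4a3, chr4:48045055-48045152, plus strand: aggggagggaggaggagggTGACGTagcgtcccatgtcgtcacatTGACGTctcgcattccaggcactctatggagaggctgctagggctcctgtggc
In Fos the CRE core begins 66 bases and the TATA box 33 bases upstream of the start. In Egr2 the CArG box begins 72 bases and the CRE core 56 bases upstream, and in Atf3 the CRE core begins 8 bases upstream of the RefSeq start and 1 base upstream of the GENCODE start. The printed Nr4a3 stretch holds a pair of CRE cores, and the TATA box of Junb begins at its RefSeq start, just past the printed stretch and 30 bases upstream of its GENCODE start. A match is a description of the sequence and no evidence of binding.

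Egr2 and Junb rose after MI in both genotypes, and they were the only members called among the 9 tested with all 12 libraries. Of all tested genes 25.7% were called higher in Cre-positive and 29.9% in Cre-negative hearts, so 2 of 9 is close to the background. Egr2 rose 27.1-fold in Cre-positive and 13.2-fold in Cre-negative hearts, and Junb rose 2.23-fold in Cre-positive and 2.57-fold in Cre-negative hearts. With Cre-positive sham replicate 2 left out, 8 of 10 members rose in Cre-positive hearts (25.6% of tested genes) and 7 of 10 in Cre-negative hearts (31.4%). Both counts include Fosl1, which failed the filter on low counts with all 12 libraries and passed it here. Its reads lay mostly in Cre-negative MI (13, 10 and 12), the group where it is high. The left-out library is not part of the Cre-negative comparison, where Fosb, Fosl2, Atf3 and Nr4a3 kept like changes with smaller errors. No member was called between genotypes, after MI or after sham. Fos, Junb, Egr1 and Fosl1 were lower in every Cre-positive MI library than in any Cre-negative MI library, as were 15.2% of tested genes. Fosl1, near the detection floor, is not among the tested genes.

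Per transcript length, the JUN genes and Egr1 were the most abundant members after MI. In Cre-positive MI the order by mean FPKM (SD, n = 3) was Jun 38.4 ± 11.2, Junb 31.0 ± 4.20, Egr1 13.0 ± 4.09, Fosl2 10.5 ± 1.21 and Atf3 9.36 ± 1.08, followed by Fos 5.22 ± 2.13, Egr2 3.08 ± 0.870 and Nr4a3 1.60 ± 0.115, with Fosb 0.450 ± 0.191 and Fosl1 0.18 ± 0.147 lowest. In Cre-negative MI it was Junb 48.8 ± 2.83, Jun 36.4 ± 5.87, Egr1 22.5 ± 4.08, Fos 13.1 ± 4.72, Atf3 11.4 ± 3.56 and Fosl2 10.6 ± 1.31, followed by Egr2 4.26 ± 1.38, Nr4a3 1.15 ± 0.397, Fosb 0.543 ± 0.0115 and Fosl1 0.487 ± 0.0493. Jun and Junb overlapped in Cre-positive MI, whereas Junb (46.1 to 51.7 FPKM) lay above Jun (31.2 to 42.7 FPKM) in all 3 Cre-negative MI libraries. Fos, Atf3 and Fosl2 overlapped one another in Cre-negative MI, as did Egr1, Fosl2 and Atf3 in Cre-positive MI.

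Jun had the highest mean in both sham groups, and Egr2 stood near the bottom. In Cre-positive sham it was Jun 22.0 ± 6.58, Atf3 18.3 ± 29.2, Junb 11.8 ± 4.77, Nr4a3 10.0 ± 16.3, Fosl2 5.63 ± 2.68, Egr1 5.21 ± 1.68, Fos 1.73 ± 1.65, Fosb 0.467 ± 0.627 and Egr2 0.1 ± 0.0361 FPKM, with no Fosl1 read. The places of Atf3 (1.04 to 51.9 FPKM) and Nr4a3 (0.440 to 28.8 FPKM) there rest on replicate 2. In Cre-negative sham it was Jun 24.3 ± 5.84, Junb 16.1 ± 6.41, Egr1 10.4 ± 6.57, Fos 5.71 ± 4.99, Fosl2 5.63 ± 1.31, Atf3 3.08 ± 2.15, Nr4a3 0.357 ± 0.146, Egr2 0.263 ± 0.110, Fosb 0.187 ± 0.145 and Fosl1 0.0200 ± 0.0346 FPKM. The ranges of Junb, Egr1 and Fos overlapped in Cre-negative sham.

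**Figure D1:**
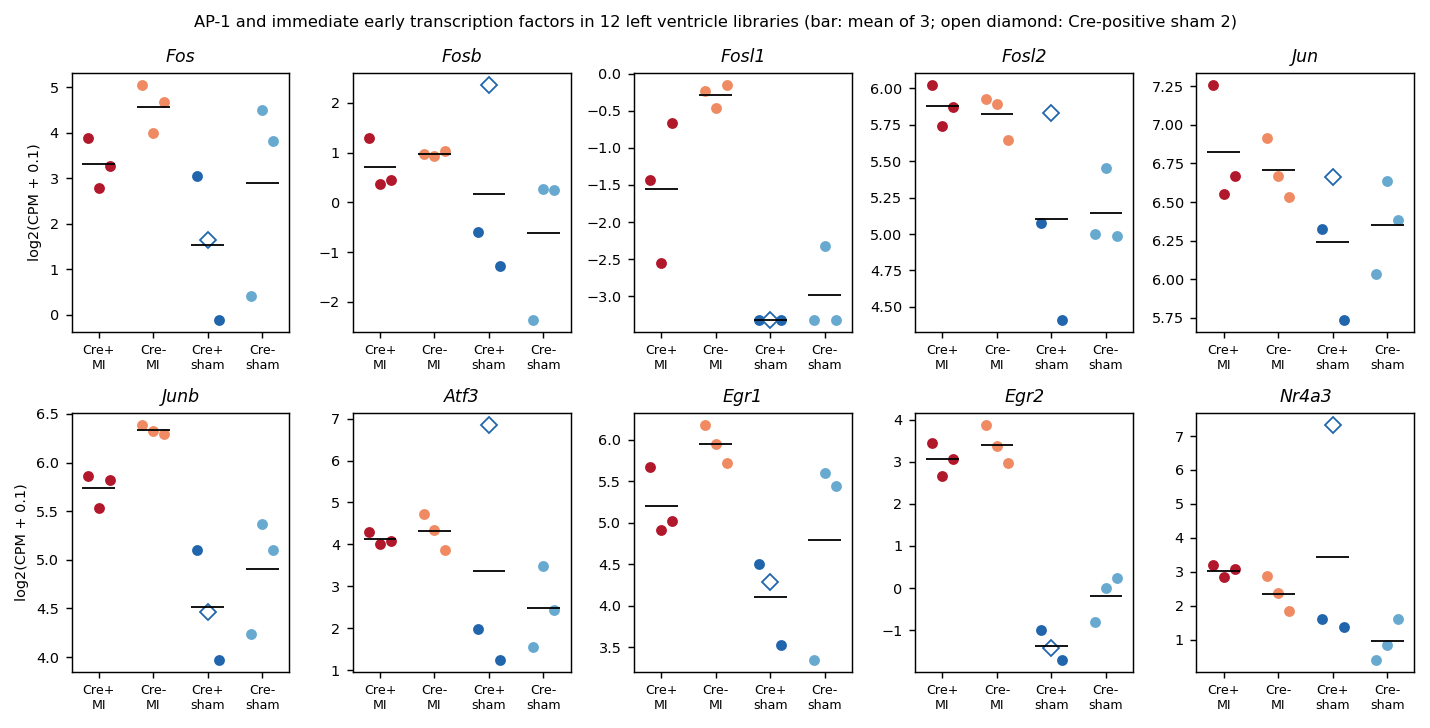
Level of each of the 10 genes in every library, as log2(CPM + 0.1), by group (MI in Cre-positive and Cre-negative hearts, then sham in the same order; points are libraries, bars the mean of 3, the open diamond Cre-positive sham replicate 2). Egr2 and Junb separate the 6 MI from the 6 sham libraries, and Nr4a3 and Atf3 reach their highest values, 160 and 115 CPM, in the open diamond.

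Fos (Entrez 14281, chr12:85473890-85477274, mm10), the founding FOS gene, was the member whose sham levels were most spread apart from replicate 2. It had 14.8, 6.78 and 9.49 CPM in Cre-positive MI and 33.0, 15.8 and 25.6 CPM in Cre-negative MI, against 8.20, 3.02 and 0.825 CPM in Cre-positive sham and 1.22, 22.7 and 13.9 CPM in Cre-negative sham, in the order of replicates 1 to 3, which is used throughout. All Cre-negative MI libraries lay above all Cre-positive MI libraries, while MI and sham overlapped in both genotypes. Within sham the highest library, Cre-negative sham 2, had 27.5 times the level of the lowest, Cre-positive sham 3. The change after MI was 1.31 ± 0.79 on the log2 scale in Cre-positive hearts (SE; adjusted p = 0.192) and 0.98 ± 0.70 in Cre-negative hearts (adjusted p = 0.256), by edgeR's quasi-likelihood test with Benjamini-Hochberg adjustment, which gives every adjusted p below unless another source is named.

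Fosl2 (Entrez 14284, chr5:32136472-32157840), the FOS family gene with the highest FPKM in Cre-positive hearts, had 65.0, 53.4 and 58.5 CPM in Cre-positive MI and 60.8, 59.3 and 50.03 CPM in Cre-negative MI, against 33.7, 56.8 and 21.2 CPM in Cre-positive sham and 31.9, 43.6 and 31.5 CPM in Cre-negative sham. The 6 MI libraries spanned only 1.30-fold, and all lay above every sham library except Cre-positive sham 2. The change was 0.66 ± 0.27 (adjusted p = 0.0605) in Cre-positive hearts and 0.67 ± 0.27 (adjusted p = 0.0506) in Cre-negative hearts. Without Cre-positive sham 2, Fosl2 rose by 1.05 ± 0.20 in Cre-positive hearts (adjusted p = 0.000811). In Cre-negative hearts, which do not include that library, Fosl2 had a like change with a smaller error and was called (0.65 ± 0.17, adjusted p = 0.0055). It was also called in Cre-negative hearts when Cre-positive sham 3 or Cre-negative sham 2 was left out instead.

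Fosb (Entrez 14282, chr7:19302696-19310118), whose short splice form makes a long-lived protein in nerve cells, was low. It had 2.37, 1.201 and 1.26 CPM in Cre-positive MI and 1.86, 1.81 and 1.93 CPM in Cre-negative MI, against 0.563, 5.04 and 0.309 CPM in Cre-positive sham and 0.0941, 1.10 and 1.08 CPM in Cre-negative sham. Only Cre-positive sham 2 exceeded the MI libraries, and the 3 Cre-negative MI libraries lay above the 3 Cre-negative sham libraries. The change was -0.29 ± 0.77 (adjusted p = 0.785) in Cre-positive hearts and 1.30 ± 0.87 (adjusted p = 0.226) in Cre-negative hearts. Without Cre-positive sham 2 it rose by 1.79 ± 0.65 in Cre-positive hearts (adjusted p = 0.0383). In Cre-negative hearts, which do not include that library, it had a like change with a smaller error and was called (1.28 ± 0.51, adjusted p = 0.0461).

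Fosl1 (Entrez 14283, chr19:5447698-5455938), which encodes FRA1, was near the detection floor. It had 0.271, 0.0707 and 0.531 CPM in Cre-positive MI and 0.754, 0.624 and 0.801 CPM in Cre-negative MI, against 0 in all 3 Cre-positive sham libraries and 0, 0.0998 and 0 CPM in Cre-negative sham. It had reads in 7 libraries, while the other 9 genes had reads in all 12. Summed over 3 libraries, Cre-positive MI held 13 reads and Cre-positive sham 0. Against 3 reads over the sham group this is 3.26-fold higher, with the MI reads (4, 1 and 8) taken as exact. Cre-negative MI held 35 reads and Cre-negative sham 1, a ratio of 22.3 with a 95% counting interval of 3.75 to 907. A count of 0 allows up to 0.198 to 0.292 CPM in a library (3 counts, before TMM scaling; counting error only), and the sham libraries and Cre-positive MI 2, which had 1 read, lie under it. The filter on low counts left Fosl1 out of the test. With no filter it rose in Cre-positive (4.98 ± 1.45, adjusted p = 0.0186) and Cre-negative hearts (4.13 ± 0.98, adjusted p = 0.00466), where fitted values depend on the prior count.

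The make-up of the FOS family by FPKM varied among libraries. Fos gave 37.5, 25.6 and 30.1% of the family's FPKM in Cre-positive MI and 58.4, 40.9 and 56.4% in Cre-negative MI, against 40.2, 11.7 and 9.59% in Cre-positive sham libraries and 9.82, 58.4 and 54.2% in Cre-negative sham. All 3 Cre-negative MI libraries had a larger Fos share than all 3 Cre-positive MI libraries, and the sham groups overlapped. Fosl2 gave most of the rest, with 65.2 ± 6.54% in Cre-positive MI, 43.8 ± 9.15% in Cre-negative MI, 74.7 ± 15.1% in Cre-positive sham libraries and 57.7 ± 27.9% in Cre-negative sham libraries (SD, n = 3). Fosb and Fosl1 stayed below 3% except Fosb in Cre-positive MI 1 (3.34%) and Cre-positive sham 2 (10.8%).

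**Figure D2:**
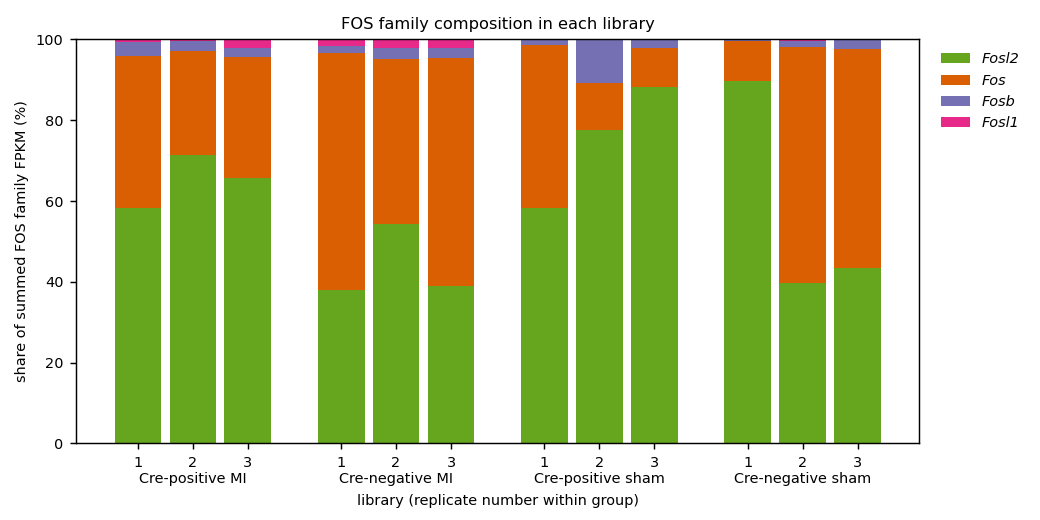
Share of the summed FPKM of Fos, Fosb, Fosl1 and Fosl2 that each gene gives, as stacked bars in percent, 1 bar per library in 4 groups. Fos gives 40.9 to 58.4% in the 3 Cre-negative MI libraries and 25.6 to 37.5% in the 3 Cre-positive MI libraries, and its share in sham runs over 9.59 to 58.4%.

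Junb (Entrez 16477, chr8:84976909-84978748), a JUN partner that activates weakly and can oppose JUN, rose after MI in both genotypes. It had 58.2, 46.3 and 56.4 CPM in Cre-positive MI and 83.6, 80.0 and 78.1 CPM in Cre-negative MI, against 34.3, 22.0 and 15.6 CPM in Cre-positive sham and 18.7, 41.2 and 34.2 CPM in Cre-negative sham. The 4 groups fell in 3 tiers without overlap, Cre-negative MI above Cre-positive MI above both sham groups. The change was 1.16 ± 0.28 (adjusted p = 0.00524) in Cre-positive hearts and 1.36 ± 0.28 (adjusted p = 0.00136) in Cre-negative hearts. Its share of the FPKM of Jun, Junb and Jund was 20.8 ± 1.47% in Cre-positive MI, 29.0 ± 0.272% in Cre-negative MI, 12.6 ± 3.95% in Cre-positive sham libraries and 18.7 ± 4.91% in Cre-negative sham.

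Jun (Entrez 16476, chr4:95049036-95052222), the strongest activator of the JUN genes, was not called with all libraries. It had 153, 93.6 and 101.5 CPM in Cre-positive MI and 121, 101.5 and 92.3 CPM in Cre-negative MI, against 80.1, 101 and 53.2 CPM in Cre-positive sham and 65.4, 99.1 and 83.6 CPM in Cre-negative sham. MI and sham overlapped in both genotypes. The change was 0.57 ± 0.24 (adjusted p = 0.073) in Cre-positive hearts and 0.34 ± 0.24 (adjusted p = 0.249) in Cre-negative hearts. Without Cre-positive sham 2 it rose in Cre-positive hearts, by 0.76 ± 0.24 (adjusted p = 0.0206), and in Cre-negative hearts it had 0.32 (adjusted p = 0.207).

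Atf3 (Entrez 11910, chr1:191170296-191183333), a stress-induced factor of the ATF/CREB family, had 19.4, 16.1 and 16.9 CPM in Cre-positive MI and 26.2, 20.2 and 14.5 CPM in Cre-negative MI, against 3.86, 115 and 2.27 CPM in Cre-positive sham and 2.82, 11.1 and 5.32 CPM in Cre-negative sham. Cre-positive sham 2 was the highest of all 12, and the other 5 sham libraries lay below all 6 MI libraries. The change was -1.21 ± 0.99 (adjusted p = 0.34) in Cre-positive hearts and 1.67 ± 1.08 (adjusted p = 0.213) in Cre-negative hearts. Without that library Atf3 rose by 2.44 ± 0.45 in Cre-positive hearts (adjusted p = 0.000712). In Cre-negative hearts, which do not include it, Atf3 had a like change with a smaller error and was called (1.65 ± 0.35, adjusted p = 0.00133).

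Egr2 (Entrez 13654, chr10:67534469-67542188), known for hindbrain and Schwann cell development and for lymphocyte and macrophage control, had the largest change of the tested members. It had 10.7, 6.22 and 8.30 CPM in Cre-positive MI and 14.5, 10.2 and 7.67 CPM in Cre-negative MI, against 0.402, 0.275 and 0.206 CPM in Cre-positive sham and 0.470, 0.899 and 1.08 CPM in Cre-negative sham. Every MI library lay above every sham library, and the 3 Cre-positive sham libraries lay below the 3 Cre-negative sham libraries. It rose by 4.76 ± 0.42 (adjusted p = 3.14e-06) in Cre-positive hearts and by 3.72 ± 0.35 (adjusted p = 3.97e-06) in Cre-negative hearts. It was called in both genotypes whichever single library was left out, with log2 changes of 4.54 to 5.06 in Cre-positive and 3.42 to 3.96 in Cre-negative hearts.

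Egr1 (Entrez 13653, chr18:34861207-34864956), a rapid serum response factor target, was more abundant and less separated. It had 50.8, 30.0 and 32.5 CPM in Cre-positive MI and 72.5, 61.8 and 52.7 CPM in Cre-negative MI, against 22.5, 19.4 and 11.4 CPM in Cre-positive sham and 10.1, 48.4 and 43.5 CPM in Cre-negative sham. MI lay above sham in each genotype, but Cre-negative sham 2 and 3 reached the Cre-positive MI range. The change was 1.08 ± 0.44 (adjusted p = 0.0655) in Cre-positive hearts and 0.88 ± 0.43 (adjusted p = 0.103) in Cre-negative hearts, and without Cre-positive sham 2 it was 1.09 in Cre-positive hearts (adjusted p = 0.0866) and 0.86 in Cre-negative hearts (adjusted p = 0.0911).

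Nr4a3 (Entrez 18124, chr4:48045078-48086447), also called NOR1, had 9.01, 7.07 and 8.30 CPM in Cre-positive MI and 7.25, 5.06 and 3.47 CPM in Cre-negative MI, against 2.98, 160 and 2.48 CPM in Cre-positive sham and 1.22, 1.70 and 2.96 CPM in Cre-negative sham. The other 5 sham libraries lay below all 6 MI libraries, and Cre-positive sham 2 lay far above them. The change was -2.76 ± 1.12 (adjusted p = 0.0625) in Cre-positive hearts and 1.43 ± 1.44 (adjusted p = 0.422) in Cre-negative hearts. Without that library Nr4a3 rose by 1.53 ± 0.35 in Cre-positive hearts (adjusted p = 0.00301). In Cre-negative hearts, which do not include it, Nr4a3 had a like change with a smaller error and was called (1.41 ± 0.33, adjusted p = 0.00236). With Cre-positive sham 2 kept and Cre-positive sham 1 or 3 left out, the fit instead called Nr4a3 lower after MI in Cre-positive hearts, at -3.32 for each.

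The number of members called after MI was largest without Cre-positive sham 2. With all 12 libraries 2 were called in each genotype, where 25.7% of tested genes were called higher in Cre-positive and 29.9% in Cre-negative hearts. Without that library 8 members were called higher in Cre-positive hearts (25.6% of tested genes) and 7 in Cre-negative hearts (31.4%), Fosl1 among them in each. That library is not part of the Cre-negative comparison. There Fosb, Fosl2, Atf3 and Nr4a3 kept like changes, and their errors fell with the estimate of spread that the groups share. Leaving out another single library gave 2 to 4 called members in either genotype, where 36.6 to 45.4% of tested genes were called in Cre-positive and 46 to 57.5% in Cre-negative hearts, in either direction. Fosl1 passed the filter in 10 of the 12 fits with 1 library left out, that without Cre-positive sham 2 among them. It passed on its reads in Cre-negative MI (13, 10 and 12), the group where it is highest. In each of these fits it was called, except in Cre-positive hearts without Cre-positive MI 3. There were 4 called members in Cre-negative hearts without Cre-positive sham 3 or Cre-negative sham 2, and 4 in Cre-positive hearts without Cre-positive sham 1, Cre-positive sham 3 or Cre-negative sham 1. By ranks of libraries, MI did not overlap sham and was higher for 4 members in Cre-positive hearts (Fosl1, Junb, Egr1 and Egr2; 29.3% of tested genes) and for 8 in Cre-negative hearts (all but Fos and Jun; 36.1% of tested genes). Fosl1 is not among the tested genes behind these shares. Its place in Cre-positive hearts rests on 1 read in Cre-positive MI 2 against 0 in sham, which the detection floor does not separate. All 6 MI libraries exceeded all 6 sham libraries for 2 members, Junb and Egr2 (24% of tested genes), and exceeded the 5 sham libraries other than Cre-positive sham 2 for 6, adding Fosb, Fosl2, Atf3 and Nr4a3 (26.8%).

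**Figure D3:**
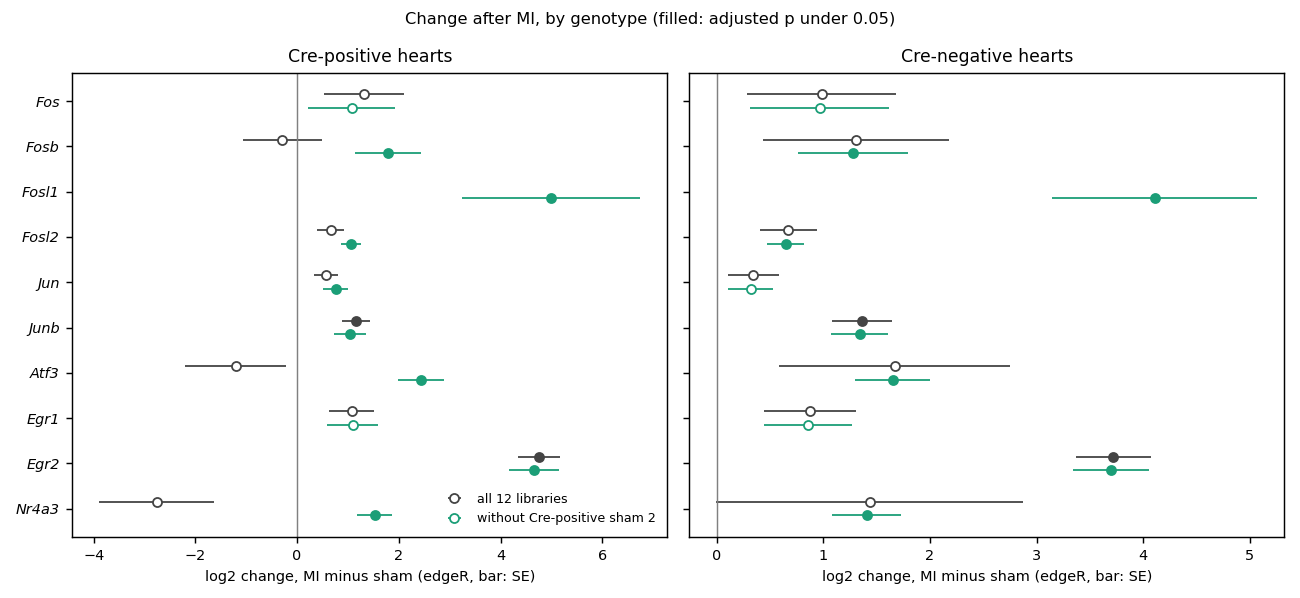
Log2 change of MI minus sham with its standard error for each member, in Cre-positive hearts (left) and Cre-negative hearts (right), from all 12 libraries and without Cre-positive sham replicate 2; filled points have an adjusted p under 0.05. Egr2 and Junb are filled in both fits, whereas Nr4a3 and Atf3 move in Cre-positive hearts from -2.76 and -1.21 to 1.53 and 2.44.

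The cells in the tissue also differed between MI and sham. All 10 macrophage markers and all 10 activated fibroblast markers rose after MI in both genotypes. As background, 25.7% of tested genes were called higher in Cre-positive and 29.9% in Cre-negative hearts. The macrophage markers summed to 1407 to 1635 CPM in Cre-positive MI and 1939 to 2253 CPM in Cre-negative MI, against 81.2 to 281 CPM in Cre-positive sham and 255 to 284 CPM in Cre-negative sham. The activated fibroblast markers summed to 10600 to 11610 CPM in Cre-positive MI and 14790 to 16360 CPM in Cre-negative MI, against 184 to 760.5 CPM in Cre-positive sham and 991 to 1402 CPM in Cre-negative sham, and no defining marker of either list was at 0 in all libraries of a group, though Cthrc1 was at 0 in Cre-positive sham 2. This list includes Postn, so its sums differ between genotypes partly through the replaced Postn allele. Of 10 cardiomyocyte markers, 6 fell in Cre-positive (19.5% of tested genes) and 8 in Cre-negative hearts (24.4%). Their sums were 60650 to 74190 CPM in Cre-positive MI and 43800 to 59020 CPM in Cre-negative MI, against 101400 to 123600 CPM in Cre-positive sham and 98750 to 114800 CPM in Cre-negative sham. The part of cell makeup in the members' changes was not tested.

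Between genotypes after MI, 4 members were lower in all 3 Cre-positive than in all 3 Cre-negative MI libraries, Fos, Fosl1, Junb and Egr1, where 15.2% of tested genes were lower without overlap. Fosl1 is not among the tested genes, and it had only 4, 1 and 8 reads in Cre-positive MI. The difference (Cre-positive minus Cre-negative) was -1.26 ± 0.70 for Fos (adjusted p = 0.494), -0.59 ± 0.27 for Junb (adjusted p = 0.396) and -0.72 ± 0.42 for Egr1 (adjusted p = 0.518). Egr2 had -0.37 ± 0.26 (adjusted p = 0.609) and Nr4a3 0.62 ± 1.17 (adjusted p = 0.89). Jun, Fosl2, Fosb and Atf3 had differences between -0.22 and 0.15. None of the 9 tested members was called, and none of the 13678 tested genes was (0%), although 1728 genes had an unadjusted p under 0.05. Among members 0 had an unadjusted p under 0.05 by edgeR, and 1 did by DESeq2, Junb (adjusted p = 0.35). DESeq2 called 1.13% of genes and no member.

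The estimate of spread bears on these values. With only the 6 MI libraries fitted, a setting added after seeing the data, the standard errors were smaller. Junb then had -0.58 ± 0.10 (adjusted p = 0.0634), Fos -1.26 ± 0.32 (adjusted p = 0.0878) and Egr1 -0.72 ± 0.20 (adjusted p = 0.102), and 0.00736% of genes were called. In the authors' deposited table of this comparison Junb (-0.57, adjusted p = 0.000232), Fos (-1.25, adjusted p = 0.00135) and Egr1 (-0.71, adjusted p = 0.00929) were lower, with 2.23% of all genes in the authors' deposited table called lower. The log2 differences were alike in the 3 sources and the calls were not, and the cause was not tested.

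**Figure D4:**
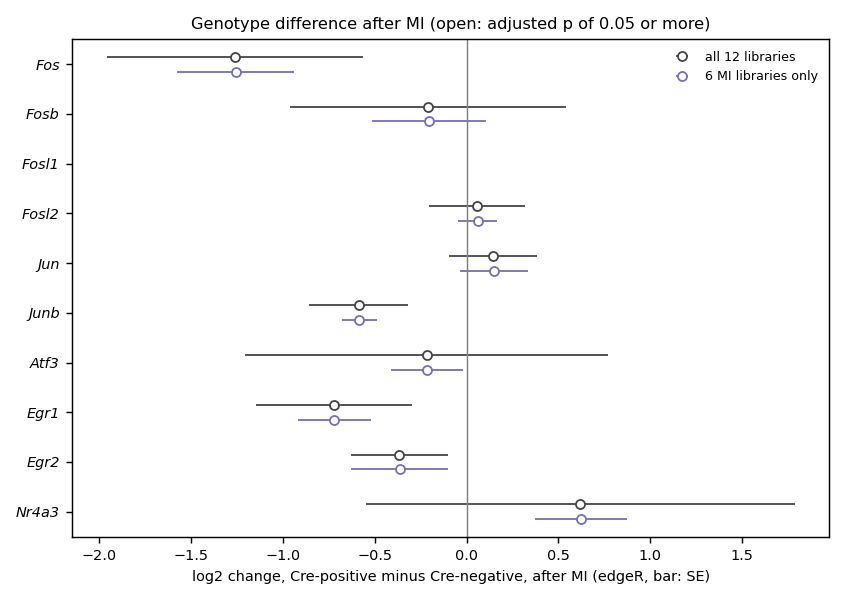
Log2 difference of Cre-positive minus Cre-negative hearts after MI, with its standard error, for each tested member, from all 12 libraries and from the 6 MI libraries only. All points are open, since no member has an adjusted p under 0.05, and the errors of Fos, Junb and Egr1 shrink to 0.32, 0.10 and 0.20 in the fit of 6 libraries.

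Marker sums moved with genotype after MI. Macrophage, activated fibroblast and proliferation marker sums were lower in all 3 Cre-positive MI than in all 3 Cre-negative MI libraries, with proliferation markers at 100.4 to 136.5 CPM in Cre-positive MI and 170 to 173 CPM in Cre-negative MI, and cardiomyocyte marker sums were higher. The activated fibroblast list holds Postn, of which 1 allele is replaced in Cre-positive mice. Postn had 603 to 674 CPM in Cre-positive MI and 1528 to 1729 CPM in Cre-negative MI, so the difference in that sum includes its own. Neutrophil markers (25.0 to 56.9 CPM in Cre-positive MI, 43.9 to 97.8 CPM in Cre-negative MI) and endothelial markers (869.5 to 958 CPM in Cre-positive MI, 955.5 to 981 CPM in Cre-negative MI) overlapped. Y-linked reads also differed, present in 1 of 3 Cre-positive MI and 3 of 3 Cre-negative MI libraries. With their presence as a covariate Fos had -1.44 (adjusted p = 0.589), Junb -0.72 (adjusted p = 0.508) and Egr1 -0.76 (adjusted p = 0.662). The part of cell makeup in the genotype differences was not tested.

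After sham, no member was called between genotypes, where 0.0512% of genes were called, all lower in Cre-positive hearts. Nr4a3 had 4.82 ± 1.36 (adjusted p = 0.582) and Atf3 2.66 ± 1.09 (adjusted p = 0.589), both through Cre-positive sham 2. By edgeR's unadjusted p, 3 members were under 0.05, Nr4a3, Atf3 and Egr2. Without that library Nr4a3 had 0.51 and Atf3 -0.99 (adjusted p = 0.527), and again no member was called (0.0361% of genes). Egr2 was lower in all 3 Cre-positive than in all 3 Cre-negative sham libraries (-1.40 ± 0.57, adjusted p = 0.587), the only member of which this held, where 5.15% of genes were lower without overlap. Fos had -1.59 ± 0.79 (adjusted p = 0.609) and Egr1 -0.92 ± 0.45 (adjusted p = 0.609), with overlapping groups. The authors' deposited table called no member here either (0.0727% of genes, all lower).

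The response to MI was not called as different between genotypes for any member or any of the 13678 genes (0%), of which 1116 had an unadjusted p under 0.05. The difference of the responses was 1.04 ± 0.63 for Egr2 (adjusted p = 0.677), 0.33 ± 1.05 for Fos (adjusted p = 0.954) and -0.21 ± 0.39 for Junb (adjusted p = 0.918). Nr4a3 had -4.20 ± 1.79 (adjusted p = 0.598) and Atf3 -2.88 ± 1.47 (adjusted p = 0.628), and without Cre-positive sham 2 these were 0.12 and 0.79. DESeq2 called 0.168% of genes and no member.

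Some members, but not all, were high in Cre-positive sham 2. Nr4a3 stood at 64.8 times, Atf3 at 29.8 times and Fosb at 8.95 times the median of the other 5 sham libraries, which rank 4, 5 and 16 among 12966 genes. Fosl2 (1.78 times) and Jun (1.26 times) were also above all other sham libraries, whereas Egr1 (0.863), Junb (0.643), Egr2 (0.584) and Fos (0.369) were within their range. In all, 5 of 10 members lay above the other 5 sham libraries, as did 30.04% of tested genes. Of the other immediate early genes 10 of 24 lay above, and of the other AP-1 subunits and bZIP factors 7 of 12. Among them, chosen after their values were seen, were the Nr4a3 relatives Nr4a1 (338 against 16.8 to 96.8 CPM) and Nr4a2 (19.0 against 1.32 to 2.99 CPM), the small Maf gene Maff (37.9 against 7.43 to 11.7 CPM) and Klf4 (134.5 against 45.3 to 56.1 CPM). In the same library all 4 atrial markers were above the other 5 sham libraries (summed 128 against 25.9 to 96.3 CPM), 9 of 10 macrophage markers were below (81.2 against 201 to 284 CPM) and 9 of 10 activated fibroblast markers were below (184 against 454 to 1402 CPM). By comparison, 29.8% of tested genes lay below. The other lists were mixed or moved less. Of 10 cardiomyocyte markers 3 were above and 5 below, and of 8 endothelial markers 3 and 3. Neutrophil markers had 2 above and 0 below of 8, and proliferation markers 0 above and 3 below of 5. The part of these in the members' levels was not tested.

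Replicates of 1 group differed in these genes more than in most. The pooled within-group SD of log2 CPM was 1.73 for Nr4a3, 1.60 for Atf3, 1.39 for Fos, 1.17 for Fosb and 0.72 for Egr1, against a median of 0.21 over tested genes. Those values lie at percentiles 96.6 to 99.7 of tested genes, and Egr2, Junb, Fosl2 and Jun lie at percentiles 84.7, 84.4, 82.1 and 77.5. Without Cre-positive sham 2 the SD of Fos was 1.48 (percentile 99.6) and that of Nr4a3 0.44 (percentile 90.3).

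Deviations from the group mean ran together in 2 sets over the 12 libraries, which share library depth and RNA handling. Jun ran with both sets. Fos deviated with Junb (r = 0.967, n = 12), Fos with Egr1 (r = 0.937) and Junb with Egr1 (r = 0.883). Atf3 deviated with Nr4a3 (r = 0.953), Fosl2 (r = 0.915) and Fosb (r = 0.898). Jun and Egr2 were placed in neither set. Jun had r of 0.654 to 0.749 with the first set and 0.617 to 0.844 with the second. Egr2 had 0.756 to 0.834 with the first set and 0.17 to 0.434 with the second. The first set held without Cre-positive sham 2 (0.97, 0.94 and 0.895, n = 11), whereas in the second set Atf3 had r = 0.51 with Nr4a3, 0.798 with Fosl2 and 0.766 with Fosb. Pairs across the 2 sets ran from 0.071 (Junb with Nr4a3) to 0.69 (Fosb with Egr1) over 12. Without that library they ran from 0.501 to 0.972, for the same pairs, so the 2 sets were no longer apart. Fos with Atf3 had 0.841 without that library, against 0.323 over 12. These are descriptions across libraries after removal of the group means.

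**Figure D5:**
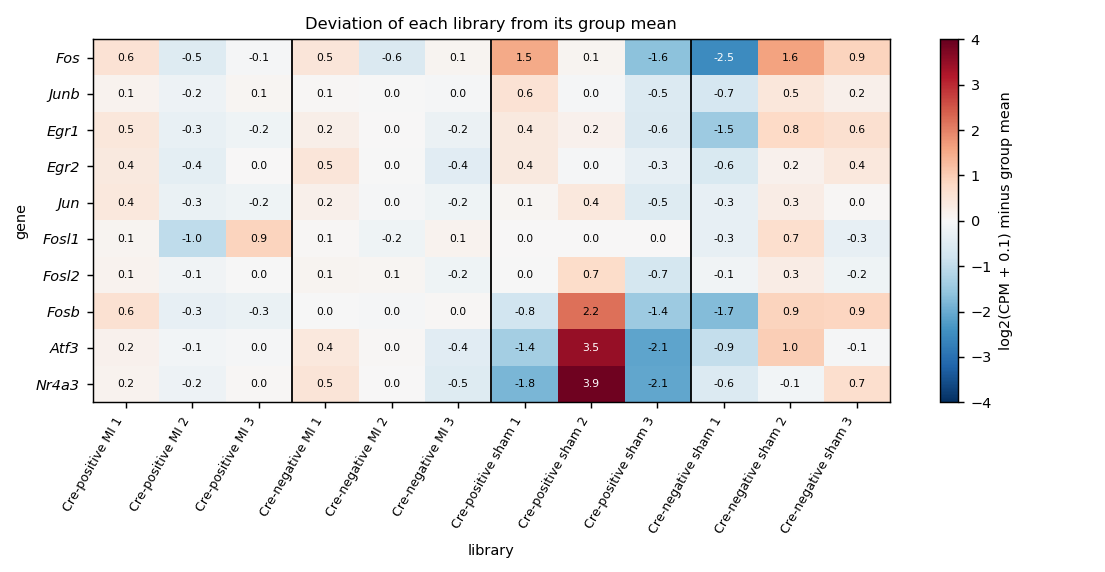
Deviation of each member from its group mean, as log2(CPM + 0.1) minus the mean of 3, for the 10 members (rows) in the 12 libraries (columns). Cre-positive sham 2 is high for Nr4a3, Atf3 and Fosb, and Fos, Junb and Egr1 are low together in Cre-negative sham 1 and in Cre-positive sham 3.

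The genes outside the members with group profiles most like Egr2 were Col5a2 (a fibrillar collagen), Ccnf and Knstrn (cell division genes), Cdh3 (a cadherin) and Havcr2 (an immune checkpoint receptor). Their root mean square difference from Egr2 over the 4 centred group means of log2 CPM was 0.06, 0.08, 0.09, 0.10 and 0.11, in a search of 11796 genes. Col5a2 had 490 ± 23.8 CPM in Cre-positive MI and 658.5 ± 59.7 CPM in Cre-negative MI, against 25.2 ± 8.85 CPM in Cre-positive sham and 53.5 ± 4.34 CPM in Cre-negative sham (SD, n = 3). Fos had looser neighbours, Naip2 (0.23), Gpr183 (0.30), Aplnr (0.32), Gmfg (0.34) and P2ry10b (0.34). Outside the members, the deviations of Fos from its group means were most like those of Actg1 (r = 0.935, n = 12), Ripk3 (0.918), Chst1 (0.913), Grap (0.908) and Otud1 (0.906).

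The wider pathway moved unevenly after MI. As background, 25.7% of tested genes were called higher and 19.5% lower in Cre-positive hearts, and 29.9% higher and 24.4% lower in Cre-negative hearts. Of 12 other AP-1 subunits and AP-1-binding bZIP factors, 4 rose and 0 fell in Cre-positive hearts (median log2 change 0.26, against 0.02 over all tested genes) and 6 rose and 1 fell in Cre-negative hearts (median 0.64, against 0.02). Batf, a JUN partner of lymphocytes and myeloid cells, rose by 2.83 ± 0.46 in Cre-positive and 4.19 ± 0.55 in Cre-negative hearts, and Batf3 by 2.16 ± 0.62 in Cre-positive and 2.40 ± 0.64 in Cre-negative hearts. Maf, a large Maf factor of lymphocytes and macrophages, rose by 1.52 ± 0.14 in Cre-positive and 1.18 ± 0.14 in Cre-negative hearts, and Atf2 had -0.23 ± 0.14 in Cre-positive hearts (adjusted p = 0.212) and fell by 0.41 ± 0.14 in Cre-negative hearts (adjusted p = 0.0256).

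Of 24 other immediate early genes 23 were tested, and Egr4 was not. In Cre-positive hearts 6 rose and 0 fell (median 0.27), where 25.7% of tested genes were called higher and 19.5% lower. The 6 of 23 that rose are close to that background. In Cre-negative hearts 11 rose while 1 fell (median 0.58), where 29.9% were called higher and 24.4% lower. Egr3, the EGR gene closest in role to Egr2 in lymphocytes, rose by 2.85 ± 0.34 in Cre-positive and 2.19 ± 0.32 in Cre-negative hearts, and Myc by 1.61 ± 0.29 in Cre-positive and 1.91 ± 0.29 in Cre-negative hearts. Btg1, an antiproliferative gene, rose by 1.003 ± 0.09 in Cre-positive and 1.03 ± 0.09 in Cre-negative hearts, and Zfp36l2, an mRNA decay factor, by 0.84 ± 0.17 in Cre-positive and 1.11 ± 0.17 in Cre-negative hearts. Klf9 had -0.30 ± 0.20 in Cre-positive hearts (adjusted p = 0.24) and fell by 1.07 ± 0.20 in Cre-negative hearts (adjusted p = 0.000834).

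Of 26 kinases and serum response factor regulators upstream, 6 rose and 11 fell in Cre-positive hearts (median -0.30) and 7 rose and 11 fell in Cre-negative hearts (median -0.23). Among all tested genes 25.7% were called higher and 19.5% lower in Cre-positive hearts, and 29.9% and 24.4% in Cre-negative hearts. The numbers that rose are close to this background. Those that rose included the RSK kinase gene Rps6ka1 (1.04 ± 0.12 in Cre-positive, 1.61 ± 0.12 in Cre-negative hearts), Mapk7, which encodes ERK5 (0.94 ± 0.12 in Cre-positive, 1.38 ± 0.12 in Cre-negative hearts), and the serum response factor cofactor Mkl1 (0.83 ± 0.15 in Cre-positive, 1.10 ± 0.15 in Cre-negative hearts), with Elk3 (0.76 ± 0.14 in Cre-positive, 0.98 ± 0.14 in Cre-negative hearts) and Mapk3 (0.40 ± 0.12 in Cre-positive, 0.64 ± 0.12 in Cre-negative hearts). Map3k5, the stress kinase ASK1, fell by 0.91 ± 0.10 in Cre-positive and 1.02 ± 0.10 in Cre-negative hearts.

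Of 18 feedback inhibitors, 6 rose and 1 fell in Cre-positive hearts (median 0.07) and 7 rose and 2 fell in Cre-negative hearts (median 0.22). Among all tested genes 25.7% were called higher and 19.5% lower in Cre-positive hearts, and 29.9% and 24.4% in Cre-negative hearts. Dusp2, a nuclear MAPK phosphatase, rose by 2.53 ± 0.56 in Cre-positive and 3.34 ± 0.59 in Cre-negative hearts, Nab2, a corepressor of EGR proteins, by 0.62 ± 0.15 in Cre-positive and 1.05 ± 0.15 in Cre-negative hearts, and Spred1 by 0.65 ± 0.13 in Cre-positive and 0.57 ± 0.13 in Cre-negative hearts. Spred2 fell by 0.62 ± 0.11 in Cre-positive and 0.65 ± 0.11 in Cre-negative hearts.

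Of 21 genes known to carry AP-1 sites 20 were tested, and Mmp10 was not. In each genotype 18 rose and 0 fell (median 2.60 in Cre-positive and 2.81 in Cre-negative hearts), where 25.7% of tested genes were called higher in Cre-positive and 29.9% in Cre-negative hearts. They included the matrix protein gene Spp1 (9.61 ± 0.31 in Cre-positive, 7.88 ± 0.27 in Cre-negative hearts), the haem oxygenase gene Hmox1 (3.98 ± 0.31 in Cre-positive, 4.90 ± 0.32 in Cre-negative hearts), the collagenase gene Mmp14 (3.497 ± 0.24 in Cre-positive, 3.75 ± 0.24 in Cre-negative hearts) and the hyaluronan receptor gene Cd44 (2.58 ± 0.19 in Cre-positive, 2.94 ± 0.19 in Cre-negative hearts). Macrophages and fibroblasts are known to express many of these genes, and their markers rose in the same libraries; the part of this was not tested. Between genotypes no gene of these 5 lists was called after MI, and after sham only Spp1 was, lower in Cre-positive hearts by 2.56 on the log2 scale (adjusted p = 0.0176).

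In the authors' deposited tables, members called higher after MI numbered 3 in Cre-positive hearts (16.5% of genes) and 6 in Cre-negative hearts (23.3% of genes). In the authors' deposited table for Cre-positive hearts these were Egr2 (4.77, adjusted p = 1.11e-15), Junb (1.12, adjusted p = 0.00081) and Egr1 (1.04, adjusted p = 0.00421). In the authors' deposited table for Cre-negative hearts they were Fosl1 (4.35), Egr2 (3.71), Atf3 (1.64), Nr4a3 (1.40), Junb (1.34) and Fosl2 (0.64), with adjusted p-values of 0.00591, 1.65e-18, 0.0136, 0.00176, 2.55e-09 and 9.74e-05. Fits to only the 2 groups compared gave 3 called members in Cre-positive hearts, Junb, Egr1 and Egr2, where 21.5% of genes were called higher, and 6 in Cre-negative hearts, Fosb, Fosl2, Junb, Atf3, Egr2 and Nr4a3, where 32.8% were. The fit of Cre-negative hearts in that setting does not contain Cre-positive sham 2.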

How the data were processed

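Per the submitters' processing notes, Bowtie2 2.2.5, RSEM 1.2.12 and mm10 were used, and per the file headers each library file holds expected counts and FPKM computed by the authors. The authors also deposited comparison tables with log2 fold changes, p-values and adjusted p-values. Genes left out of a library file were set to 0. Expected counts, 74.5% of them whole to 2 decimals, were rounded and analysed in R 4.3.3 with edgeR 4.0.16 (filterByExpr with minimum count 10, 13678 genes kept and 3793 removed; TMM; quasi-likelihood fit of 4 groups over 12 libraries, residual degrees of freedom 8), with Benjamini-Hochberg adjustment over all genes and calls under 0.05, two-sided. Errors of log2 changes are standard errors. Alternatives were RLE size factors, no filter, DESeq2 1.42.0, a replicate block, limma 3.58.1 on log2(FPKM + 1) and log2(FPKM + 0.1), Y-linked reads (at least 10 CPM) as a covariate, each library left out, and, added after seeing the data, fits of only the 2 groups compared. The fit was tested on simulated data. No pair of libraries held identical counts. An exact permutation of 3 against 3 libraries cannot go below p = 0.1, so none is given.

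The members and lists were chosen with earlier results of these data known. Members are all described. Each list names up to 4 members with the smallest p in Cre-negative hearts after MI and up to 2 called members that go the other way. Genes like Egr2 and Fos are the 5 outside the members with the smallest difference of group means or highest r, above a floor of 1 in mean log2 CPM.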

Additional observations from a re-analysis of the deposited data

How the results depend on the processing

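With another setting, the number of called members changed most after MI. In Cre-positive hearts it was 2 with all libraries, 5 and 4 by limma on log2(FPKM + 1) and log2(FPKM + 0.1), 3 with no filter, 3 in fits of only the 2 groups compared (chosen after seeing the data), and 2 to 8 with 1 library left out. In Cre-negative hearts it was 2 with all libraries, 4 with no filter, 4 and 4 by limma on those scales, 6 in the fits of 2 groups, and 2 to 7 with 1 library left out. Across those settings other than the left-out libraries, 20.1 to 36.9% of tested genes were called higher in Cre-positive and 23.7 to 41.5% in Cre-negative hearts, and with 1 library left out 22.3 to 25.6% were in Cre-positive and 25 to 31.4% in Cre-negative hearts. The largest counts, 8 and 7, are those without Cre-positive sham 2, and both include Fosl1, which was not tested with all libraries. Called members include Nr4a3 lower at -3.32 without Cre-positive sham 1 or 3. On the FPKM scales the median change of all tested genes was 0.18 and 0.25 in Cre-positive and 0.20 and 0.26 in Cre-negative hearts, and 0.02 in both with edgeR, so those changes are relative to a shifted centre. The replicate numbers do not pair the libraries (correlations of deviations -0.154 to 0.288, median 0.02, over 18 same-numbered pairs), and the replicate block gave 3 called members in each genotype, adding Fosl2 (0.74, adjusted p = 0.0259 in Cre-positive hearts and 0.68, adjusted p = 0.0302 in Cre-negative hearts). DESeq2 gave 3 in each and left Nr4a3 without a p. No member was called in the genotype comparisons or in the difference of responses under any alternative run.

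Egr2 and Junb were called in both genotypes in every alternative run, with Junb at 0.89 to 1.51 in Cre-positive and 1.07 to 1.58 in Cre-negative hearts when 1 library was left out. Changes of sign, for none of which the cause was tested, were these. Fosb after MI in Cre-positive hearts was 0.03 with the block, 0.06 and 0.49 on the FPKM scales, and Atf3 was 0.62 and 0.97. Fosl2 between genotypes was -0.01, -0.01 and -0.01 after MI and -0.06, -0.08 and -0.01 after sham on the 2 FPKM scales and with the Y-linked covariate, and its difference of responses was 0.06 with the block and 0.05 and 0.07 on the FPKM scales. The difference of responses was -0.12 for Fos and -0.16 for Egr2 on log2(FPKM + 1), and -0.09 and -0.08 for Egr1 on both.

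With 1 library left out, Fosb ran over -0.78 to 1.79 after MI in Cre-positive hearts, -0.70 to 1.86 between genotypes after sham and -2.06 to 0.51 in the difference of responses. Atf3 ran over -1.76 to 2.44, -3.50 to 0.79 in the difference of responses, -0.41 to 0.01 between genotypes after MI and -0.99 to 3.29 after sham. Nr4a3 ran over -3.32 to 1.53 after MI in Cre-positive hearts and -4.73 to 0.12 in the difference of responses. Fosl2 ran over -0.03 to 0.12, -0.34 to 0.35 and -0.28 to 0.41, and Jun over -0.10 to 0.28, -0.28 to 0.14 and -0.02 to 0.44, between genotypes after MI, after sham and in the difference of responses. That difference ran over -0.40 to 1.43 for Fos, -0.45 to 0.17 for Junb and -0.14 to 0.64 for Egr1. Fosl1, which passed the filter in 10 of these 12 fits (all but those without Cre-negative MI 1 or 3), ran over -2.65 to 0.00 after sham and -1.26 to 1.39 in the difference of responses, and in Cre-positive hearts after MI it was not called without Cre-positive MI 3 (adjusted p = 0.0544). Depth limits Fosl1, most of all in sham and in Cre-positive MI, where it had 4, 1 and 8 reads. In Cre-negative MI it had 13, 10 and 12 reads, above the 3 counts that a count of 0 allows.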
